A study of Rattus norvegicus with 16 samples.

Results

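The set for respiratory complexes II to V and cytochrome c held 54 of the 17147 genes in the count table. These were taken by symbol: Sdha to Sdhd, Cyc1, Cycs, and symbols beginning with Uqcr, Atp5 or Cox and a digit. They comprise 4 subunits of complex II, 9 of complex III, cytochrome c, 14 subunits and isoforms of complex IV, 15 of ATP synthase (complex V), 8 genes that assemble complex IV or join it into supercomplexes, 1 pseudogene (Cox6c-ps1), and Atp5s and Atp5sl. RNA was sequenced from supraspinatus, a rotator cuff muscle, of Sprague Dawley rats. The 4 groups held 4 libraries each: unoperated controls (0 days), and muscles taken 10, 30 and 60 days after a full-thickness supraspinatus tear on both sides combined with suprascapular neurectomy, which cuts the nerve supplying this muscle. The operation combined tendon and nerve injury, so the contribution of each cannot be told apart. No operated control group was among these samples. Sex and age were not given in the sources used here, nor whether libraries came from separate rats, so p-values measure the spread between these libraries, which may in part be technical.

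Complex II (succinate dehydrogenase) feeds electrons from the citric acid cycle into the inner mitochondrial membrane. Complex III passes them to cytochrome c, complex IV (cytochrome c oxidase) hands them to oxygen, and complex V uses the resulting proton gradient to make ATP. Several complex IV subunits have a form made in striated muscle, such as Cox6a2 and Cox8b, and a form made in most tissues, such as Cox6a1 and Cox8a. ATP synthase has 3 genes, Atp5g1, Atp5g2 and Atp5g3, for the same mature c subunit of its rotating ring.

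The promoters of the muscle isoforms Cox6a2 and Cox8b and of the widely made Cox8a are shown because these isoforms parted after injury. Each runs 5′ to 3′ on the gene's strand from 250 bases before to 50 after the start in RefSeq's GRCr8 table. Capitals mark matches to the motifs searched. Cox6a2 lies at chr1:192219667-192219966, Cox8b at chr1:205408224-205408523 and Cox8a at chr1:213833574-213833873, all on the minus strand.
Cox6a2: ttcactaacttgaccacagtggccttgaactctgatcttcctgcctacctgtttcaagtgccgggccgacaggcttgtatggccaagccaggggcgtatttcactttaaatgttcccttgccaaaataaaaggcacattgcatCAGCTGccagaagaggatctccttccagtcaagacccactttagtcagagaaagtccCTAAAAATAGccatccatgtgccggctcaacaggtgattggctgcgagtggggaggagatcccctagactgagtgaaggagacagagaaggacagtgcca
Cox8b: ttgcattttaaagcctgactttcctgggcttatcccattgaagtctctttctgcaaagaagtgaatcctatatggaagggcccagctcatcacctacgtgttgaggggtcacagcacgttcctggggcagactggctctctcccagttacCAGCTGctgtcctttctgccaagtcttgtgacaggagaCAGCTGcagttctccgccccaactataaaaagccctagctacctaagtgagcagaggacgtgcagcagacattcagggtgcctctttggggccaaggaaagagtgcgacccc
Cox8a: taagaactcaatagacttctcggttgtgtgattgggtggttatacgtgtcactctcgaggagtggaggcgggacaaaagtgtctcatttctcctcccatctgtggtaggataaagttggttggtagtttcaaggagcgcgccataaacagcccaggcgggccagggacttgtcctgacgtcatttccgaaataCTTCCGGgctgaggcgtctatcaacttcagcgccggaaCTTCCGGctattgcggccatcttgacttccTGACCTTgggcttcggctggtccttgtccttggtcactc
In Cox6a2 the capitals are an E-box starting at position -107 and a MEF2 frame at -50. In Cox8b they are a pair of E-boxes at -100 and -62. In Cox8a they are an ETS core at -57 and again at -19, and an estrogen-related receptor motif at 12, all 3 read on the opposite strand. These matches are descriptions of letters, not sites of binding. Cox6a1, the partner of Cox6a2, had no promoter in the RefSeq table, so the promoters of the Cox6a pair cannot be compared.

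Short motifs were searched on both strands in all 33469 promoters of the table and in the 45 of the 54 genes that had one. Among the 36 promoters of subunits and cytochrome c, the NRF1 core TGCGCA was found in 9 (25%), against 7.24% of all promoters. The ETS core CCGGAAG was found in 13 (36.1%), against 8.75%. The estrogen-related receptor motif AAGGTCA was found in 7 (19.4%), against 4.61%, and the YY1 core GATGGCG in 4 (11.1%), against 3.89%. The E-box CAGCTG was found in 8 (22.2%), against 15.1%, and the MEF2 frame (CTA and TAG with 4 bases of any kind between) in 2 (5.56%), against 3.84%. No motif's letters contain those of another.

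Libraries held 17.2 to 39.9 M fragments, and 11658 genes passed the filter on low counts. The median share of fragments on the 54 genes was 2.86% at 0 days (range 2.79 to 3.04%), 1.56% at 10 days (1.50 to 1.72%), 2.87% at 30 days (2.52 to 3.23%) and 3.53% at 60 days (2.78 to 3.78%). Levels below are counts per 1000000 fragments (CPM) after TMM scaling, which sets the bulk of genes level between libraries, and are compared between groups only, since gene length was not corrected. Scaled by library totals, the typical gene (median) had a log2 fold change of 0.72, 0.54 and 0.45 at 10, 30 and 60 days, which is 0.66, 0.49 and 0.41 above its value with TMM. Changes are reported relative to the bulk of genes. Of 150 member values against 0 days, 54 had the opposite sign with library totals, and 15 calls were lost with the same sign and 15 with the opposite one.

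At 10 days nearly the whole set was lower than at 0 days. Of the 50 members tested, 46 were lower and 1 higher by edgeR's quasi-likelihood test at an adjusted p under 0.05, where 29.4% of all genes tested were lower and 33.3% higher. Libraries did not overlap between the groups for 46 lower members and 1 higher one, against 27.8% and 31.2% of all genes. The median log2 fold change of the members was -1.33, against 0.061 over all genes. With library totals 37 were lower and 8 higher and the median was -0.67. Setting the members' median against that of all genes gave -1.39. Scaling shifts all genes alike, so this value is the same with library totals by construction. The remaining 4 members were not tested: Cox8c was listed at 0 in every library, which allows up to 0.0752 to 0.175 CPM, Cox6c-ps1 had 2 fragments in all, and Cox6b2 had 2 to 13 fragments a library. Atp5f1, which encodes the b subunit of the ATP synthase stalk that every cell uses, was also listed at 0 in all 16 libraries. That may be a failed estimate in the deposited table, so no limit on its level is drawn from it.

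**Figure D1:**
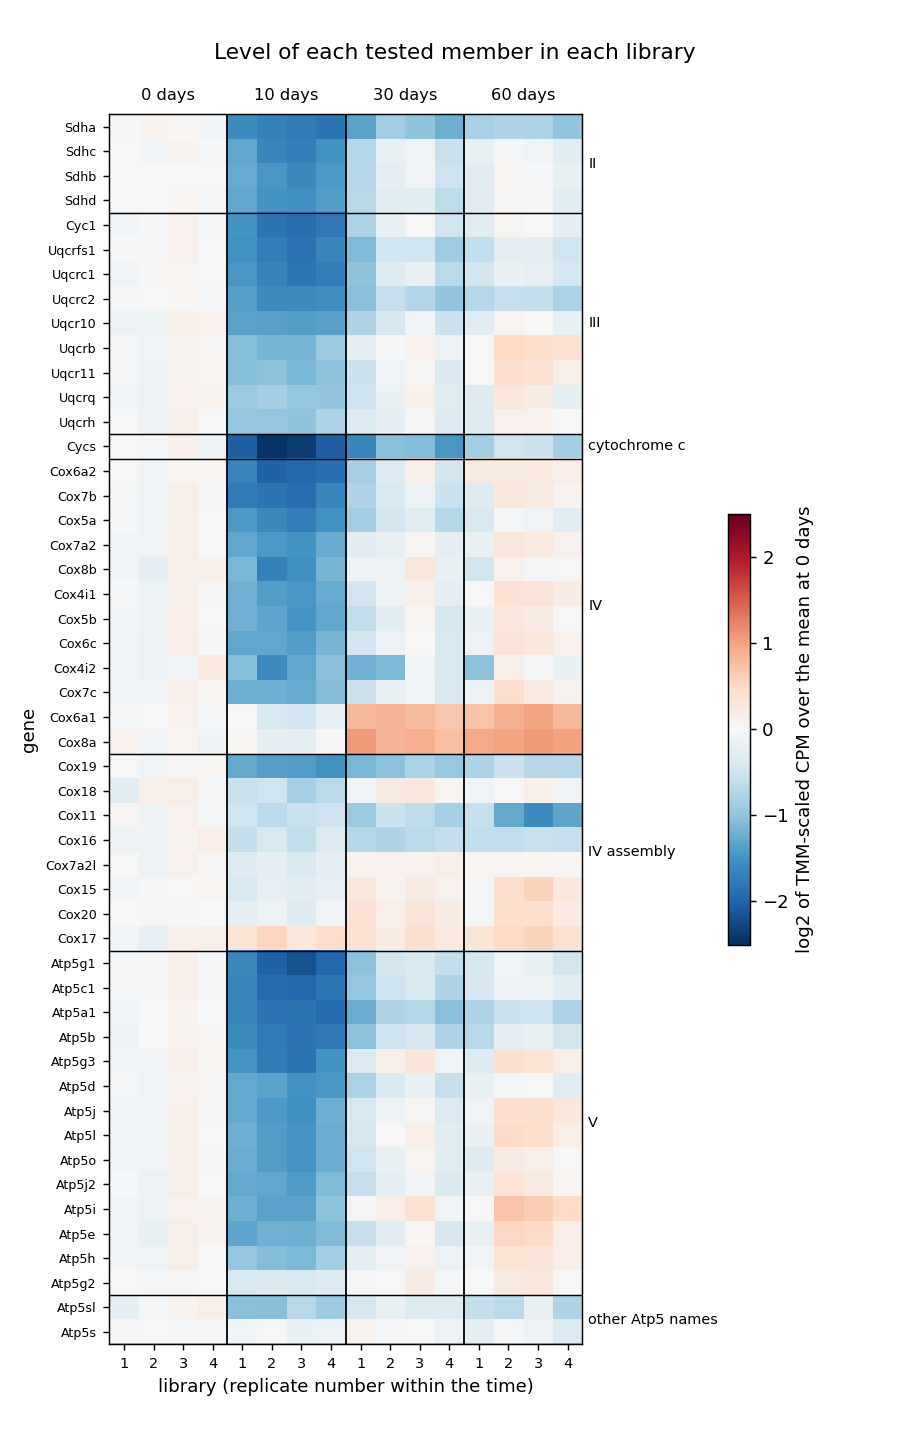
Log2 level of each tested member (rows, grouped by complex) in each of the 16 libraries (columns, by group), as the difference from its mean at 0 days. The 4 libraries at 10 days are low in nearly every row, and those at 30 and 60 days lie nearer to 0.

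The drop was followed by a rise. Of the 46 members lower at 10 days, 44 were higher at 60 than at 10 days, as were 29.1% of all genes tested. Both comparisons use the same 10-day libraries, so picking members that were low at 10 days favours a later rise. Against 0 days, 32 of the 46 were not called at 60 days, 10 were lower and 4 higher. The matching shares among all genes lower at 10 days were not computed. Of 40 tested subunits including cytochrome c, all had their lowest group mean at 10 days on the TMM scale. For Cox8a the means at 10 and 0 days were close (48.6 and 52.7 CPM, not called). The same share over all genes was not computed. With library totals 3 of the 40 were called higher at 10 than at 0 days: Cox6a1 (0.40), Cox8a (0.54) and Atp5g2 (0.28). Among members, 24 were lower and 4 higher at 30 days (all genes: 30.9% and 33.7%), with a median of -0.29, or 0.20 with library totals. At 60 days 11 were lower and 7 higher (29.1% and 29.9%), with a median of -0.01, or 0.40 with library totals, under which 34 were higher and 5 lower. Against the median of all genes these are -0.34 and -0.05, again the same with either scaling by construction. Comparisons with 0 days share the control libraries.

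From 10 to 30 days 45 members rose and 0 fell by edgeR at an adjusted p under 0.05 (all genes: 23% and 24.3%). At an unadjusted p under 0.05 the number lower was 1 (Cox16, -0.20), by DESeq2 and limma-voom it was 0, and with library totals it was 2. From 10 to 60 days 46 rose and only Cox11 fell (29.1% and 31.9%), or 43 and 3 with library totals. The Cox11 libraries at 10 and 60 days overlapped. Between 30 and 60 days 18 rose and 0 fell by edgeR (10.3% and 12.4%), with a median of 0.29, and Cycs (0.60), Atp5e (0.56) and Cox6a2 (0.56) had the largest rises. At an unadjusted p under 0.05 the number lower was 2, by DESeq2 and limma-voom it was 0, and with library totals it was 2. The number of members called in either direction between 30 and 60 days, 18 as reported, moved most. It was 1 when only those groups were fitted, 7 without replicate 1 at 30 days and 9 without replicate 4 at 30 days. It was 28 without replicate 1 at 60 days, 7 without replicate 2 at 60 days and 10 without replicate 3 at 60 days. Of the 21 members whose level was compared library by library, 18 were lowest at 30 days in replicate 1, and 16 were lowest at 60 days in replicate 1.

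Every complex was lower at 10 days. Median log2 fold changes against 0 days were -1.48 in complex II, -1.36 in III, -1.32 in IV and -1.34 in V, and -2.22 for the single gene of cytochrome c. The numbers lower were 4 of 4, 9 of 9, 11 of 12 and 14 of 14. At 30 days the medians were -0.41, -0.34, -0.26 and -0.25, and at 60 days -0.15, -0.10, 0.14 and 0.12. With library totals the 10-day medians were -0.82, -0.70, -0.66 and -0.69, those at 30 days turned to 0.08, 0.15, 0.23 and 0.24, and those at 60 days were 0.26, 0.31, 0.55 and 0.53. Differences between complexes were not tested, and the spread within each was wider than the gap between medians. The 8 complex IV assembly and supercomplex genes had a median of -0.38 at 10 days, with 6 lower and 1 higher, but 0.28, with 1 lower and 4 higher, under library totals.

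**Figure D2:**
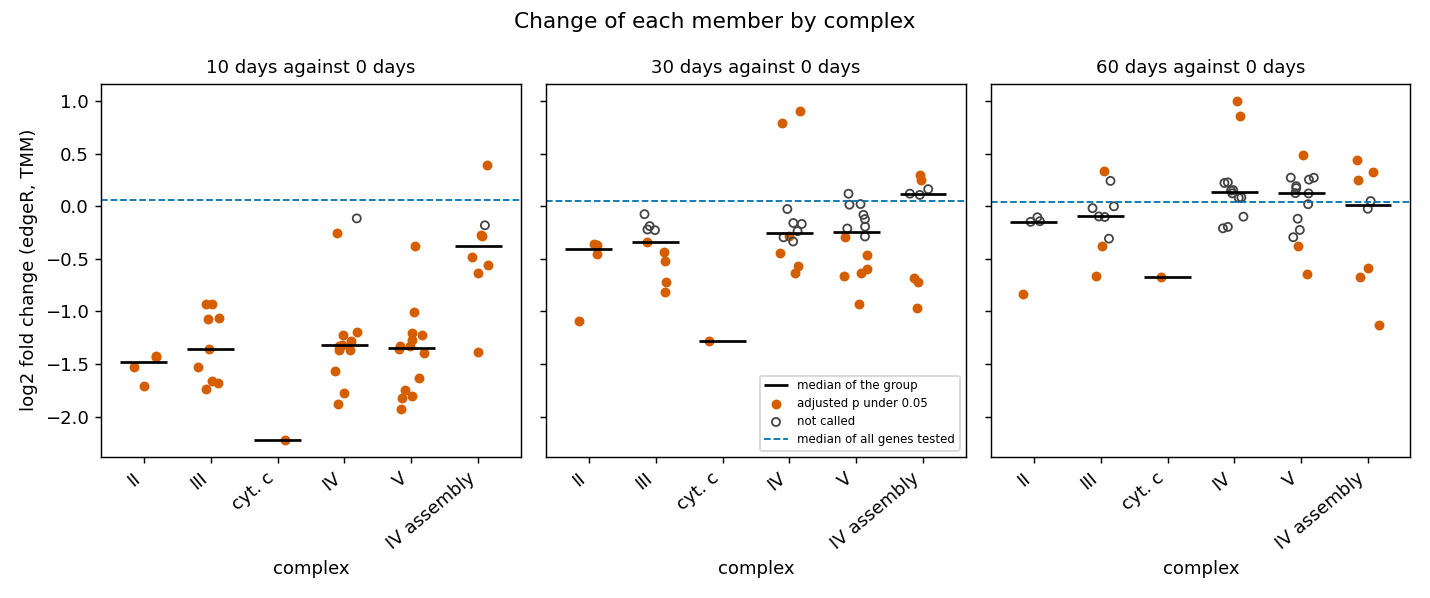
Log2 fold change of each tested member against 0 days (points, y axis) at 10, 30 and 60 days, by complex (x axis), with the median of each complex as a bar. Points of complexes II to V lie mostly between -1 and -2 at 10 days and around 0 at 60 days, while Cycs and Sdha stay below 0, all on the TMM scale.

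Complex II is made only from nuclear genes. Sdha, its flavoprotein that oxidises succinate, stood at 1120, 1216, 1174 and 1092 CPM at 0 days and at 388, 355, 343 and 323 CPM at 10 days. It stood at 456, 634, 571 and 493 CPM at 30 days and 652, 681, 672 and 583 CPM at 60 days. No injured library reached the lowest control, and the 60-day libraries lay above the 10-day ones. The log2 fold change was -1.71 ± 0.10 (SE; adjusted p = 1.02e-09), -1.10 ± 0.10 (1.12e-07) and -0.83 ± 0.10 (3.35e-06) for the successive times by edgeR.

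Sdhb, the iron-sulfur subunit that takes the electrons onward, was lower at 10 and 30 days. Its levels were 731, 744, 733 and 731 CPM at 0 days, 308, 268, 239 and 273 CPM at 10 days, 450, 624, 693 and 515 CPM at 30 days and 613, 757, 718 and 643 CPM at 60 days. At 60 days these overlapped the controls, with a log2 fold change of -0.11 ± 0.12 (edgeR adjusted p = 0.454), or 0.30 and called higher with library totals. At 30 days the fold change was -0.36 ± 0.12 (adjusted p = 0.0125), or 0.12 with library totals. Of the membrane anchors, Sdhd stood at 774, 772, 811 and 768 CPM at 0 days, 317, 277, 271 and 298 CPM at 10 days, 485, 652, 642 and 501 CPM at 30 days and 641, 769, 769 and 652 CPM at 60 days. Sdhd fell by 1.42 at 10 days, overlapped the controls at 60 days and was not called there (-0.14, or 0.27 and called higher with library totals). Sdhc, the other anchor, fell by 1.53 and had a 60-day value of -0.15 (0.26 with library totals). The difference between Sdha and the other subunits was not tested.

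In complex III, Cyc1 is cytochrome c1, Uqcrfs1 the Rieske iron-sulfur protein, and Uqcrc1 and Uqcrc2 the core proteins facing the matrix. Cyc1 fell most, from 895, 924, 1011 and 924 CPM at 0 days to 333, 266, 255 and 272 CPM at 10 days. It stood at 551, 824, 931 and 668 CPM at 30 days and 761, 988, 943 and 803 CPM at 60 days, overlapping the controls at both times. The 10-day log2 fold change was -1.74 ± 0.14 (edgeR adjusted p = 2.54e-08) and the 60-day one -0.10 ± 0.14 (0.54), or 0.31 with library totals. The 30-day value, -0.34 (0.0436), or 0.15 with library totals, lost its call in 8 of the 16 fits that left out 1 library: each 0-day library, replicates 1 and 4 at 30 days, and replicate 4 at 10 and at 60 days.

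The Rieske protein hands electrons to Cyc1. Uqcrfs1 stood at 923, 927, 1035 and 959 CPM at 0 days, 337, 291, 267 and 306 CPM at 10 days, 448, 681, 678 and 520 CPM at 30 days and 625, 828, 818 and 683 CPM at 60 days. None of the injured libraries reached the controls. Its log2 fold changes were -1.68 ± 0.13 (edgeR adjusted p = 1.77e-08), -0.72 ± 0.13 (0.000147) and -0.38 ± 0.13 (0.0193). With library totals the 30-day value was -0.24, not called (0.0692), and the 60-day value was 0.03. The 60-day call was also lost without replicate 3 at 0 days or replicate 1 or 4 at 60 days (highest adjusted p = 0.0763).

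RNA of both core proteins was lower at 10 days and 30 days on the TMM scale. Uqcrc1 stood at 906, 990, 1017 and 964 CPM at 0 days, 351, 306, 277 and 292 CPM at 10 days, 484, 760, 841 and 610 CPM at 30 days and 709, 869, 838 and 715 CPM at 60 days. The 60-day libraries lay under the controls without overlap, but the change of -0.31 ± 0.14 was not called (edgeR adjusted p = 0.0629). With library totals Uqcrc1 was -0.04 at 30 days, not called (adjusted p = 0.748), and 0.10 at 60 days. Uqcrc2 had log2 fold changes of -1.52, -0.82 and -0.66, each called, and it was also lower at 60 days with library totals (-0.26). The small hinge protein Uqcrh, which helps cytochrome c dock, changed least in the complex at 10 days, from 377, 343, 409 and 378 CPM to 193, 192, 186 and 218 CPM (-0.93 ± 0.10, edgeR adjusted p = 4.5e-07). At 30 and 60 days Uqcrh was not called (-0.23 and -0.02, or 0.26 and 0.39 with library totals, both called higher). The remaining small subunits had fold changes of -0.93 (Uqcrq) to -1.36 (Uqcr10) at 10 days, and Uqcrb was higher than the controls at 60 days, at 0.34 ± 0.11 (edgeR adjusted p = 0.0119), with overlapping libraries.

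Cytochrome c, the mobile carrier between complexes III and IV that also takes part in apoptosis, showed the largest fold change of the 50 members at 10 days. Cycs stood at 1833, 1756, 1988 and 1664 CPM at 0 days and 441, 330, 350 and 436 CPM at 10 days. It stood at 585, 883, 852 and 662 CPM at 30 days and 1004, 1279, 1242 and 1010 CPM at 60 days. The 4 groups did not overlap in any of these comparisons, and the means of the successive times were 21.5%, 41.2% and 62.6% of the control mean. The log2 fold changes were -2.22 ± 0.15 (edgeR adjusted p = 2.47e-09), -1.28 ± 0.14 (9.26e-07) and -0.67 ± 0.14 (0.00061). At 60 days the value with library totals was -0.27 and was not called (adjusted p = 0.0673). Reads of Cycs could be shared with processed pseudogene copies, so its level is uncertain.

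Complex IV holds mitochondrially encoded core subunits, which are not members, and the nuclear subunits described here. Cox4i1, the main form of its largest nuclear subunit, stood at 984, 932, 1119 and 1038 CPM at 0 days, 443, 388, 372 and 423 CPM at 10 days, 732, 928, 1116 and 870 CPM at 30 days and 1020, 1310, 1273 and 1163 CPM at 60 days. After the 10-day drop of 1.32 ± 0.12 (edgeR adjusted p = 7.17e-08), its libraries overlapped the controls at 30 and 60 days and it was not called (-0.16 and 0.23), but with library totals it was called higher at both times (0.33 and 0.64). Cox5a is another nuclear subunit. It stood at 888, 851, 1013 and 916 CPM at 0 days, 339, 301, 279 and 320 CPM at 10 days, 507, 671, 741 and 561 CPM at 30 days and 697, 882, 863 and 760 CPM at 60 days, with log2 fold changes of -1.57 ± 0.12 (edgeR adjusted p = 9.74e-09), -0.57 ± 0.12 (0.000454) and -0.20 ± 0.12 (0.152). With library totals Cox5a was -0.08 at 30 days, not called (adjusted p = 0.489), and 0.21 at 60 days (0.0714).

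Cox5b is a zinc-binding subunit. Its levels were 569, 548, 670 and 593 CPM at 0 days, 260, 239, 214 and 243 CPM at 10 days, 386, 492, 622 and 438 CPM at 30 days and 534, 712, 686 and 589 CPM at 60 days. Only the 10-day libraries stood apart from the controls (-1.32 ± 0.13, edgeR adjusted p = 2.44e-07), and the 30-day and 60-day fold changes were -0.30 ± 0.13 (0.0554) and 0.08 ± 0.13 (0.599). With library totals Cox5b was 0.19 at 30 days and 0.49, called higher, at 60 days. Of the small subunits, Cox7b fell by 1.78, Cox7a2 by 1.37, Cox6c by 1.28 and Cox7c by 1.19 at 10 days, and none was called at 60 days. Cox7a1, the muscle partner of Cox7a2, and Cox6b1 were not analysed here.

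The Cox6a pair split. Cox6a2, the muscle form of a subunit that tunes the enzyme's activity, stood at 1663, 1552, 1727 and 1766 CPM at 0 days, 532, 411, 429 and 452 CPM at 10 days, 941, 1327, 1821 and 1227 CPM at 30 days and 1971, 1958, 1992 and 1893 CPM at 60 days. Its 10-day libraries lay far under the rest, and its 60-day libraries all lay above the controls. The 10-day fold change was -1.88 ± 0.15 (edgeR adjusted p = 1.78e-08). Neither the 30-day value of -0.34 ± 0.15 (0.052) nor the 60-day value of 0.22 ± 0.14 (0.2) was called. With library totals they were 0.14, not called, and 0.63, called higher (adjusted p = 0.000327).

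Cox6a1, the form of other tissues, stood at 45.1, 46.0, 50.01 and 45.3 CPM at 0 days, 46.0, 35.5, 33.4 and 40.7 CPM at 10 days, 83.1, 84.3, 80.3 and 74.2 CPM at 30 days and 76.7, 86.6, 91.8 and 82.9 CPM at 60 days. Every 30-day and 60-day library exceeded every control. The rises were 0.79 ± 0.09 (edgeR adjusted p = 1.38e-06) and 0.86 ± 0.09 (8.95e-07). The 10-day change was -0.26 ± 0.09 (0.0191), but 0.40 with library totals, and its call was lost without replicate 3 at 0 days or replicate 2 or 3 at 10 days.

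The Cox8 pair split in another way. Cox8b, the muscle form, stood at 667, 599, 770 and 763 CPM at 0 days, 317, 217, 242 and 312 CPM at 10 days, 638, 639, 857 and 614 CPM at 30 days and 493, 750, 679 and 691 CPM at 60 days. It overlapped the controls at both later times, with fold changes of -1.36 ± 0.15 (edgeR adjusted p = 1.02e-06), -0.03 ± 0.15 (0.886) and -0.10 ± 0.15 (0.588). With library totals the later values were 0.46, called higher (adjusted p = 0.0111), and 0.31 (0.0729). Cox8a, the form of other tissues, stood at 56.9, 49.7, 55.6 and 48.4 CPM at 0 days, 54.2, 44.6, 44.9 and 50.7 CPM at 10 days, 110, 95.1, 99.3 and 88.3 CPM at 30 days and 101, 104, 111 and 106 CPM at 60 days. Cox8a was the only tested subunit not called at 10 days (-0.12 ± 0.08, edgeR adjusted p = 0.236, or 0.54 and called higher with library totals). It rose by 0.90 ± 0.08 (1.35e-07) and 1.00 ± 0.08 (7.7e-08) at 30 and 60 days, to 187% and 200.5% of the control mean.

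**Figure D3:**
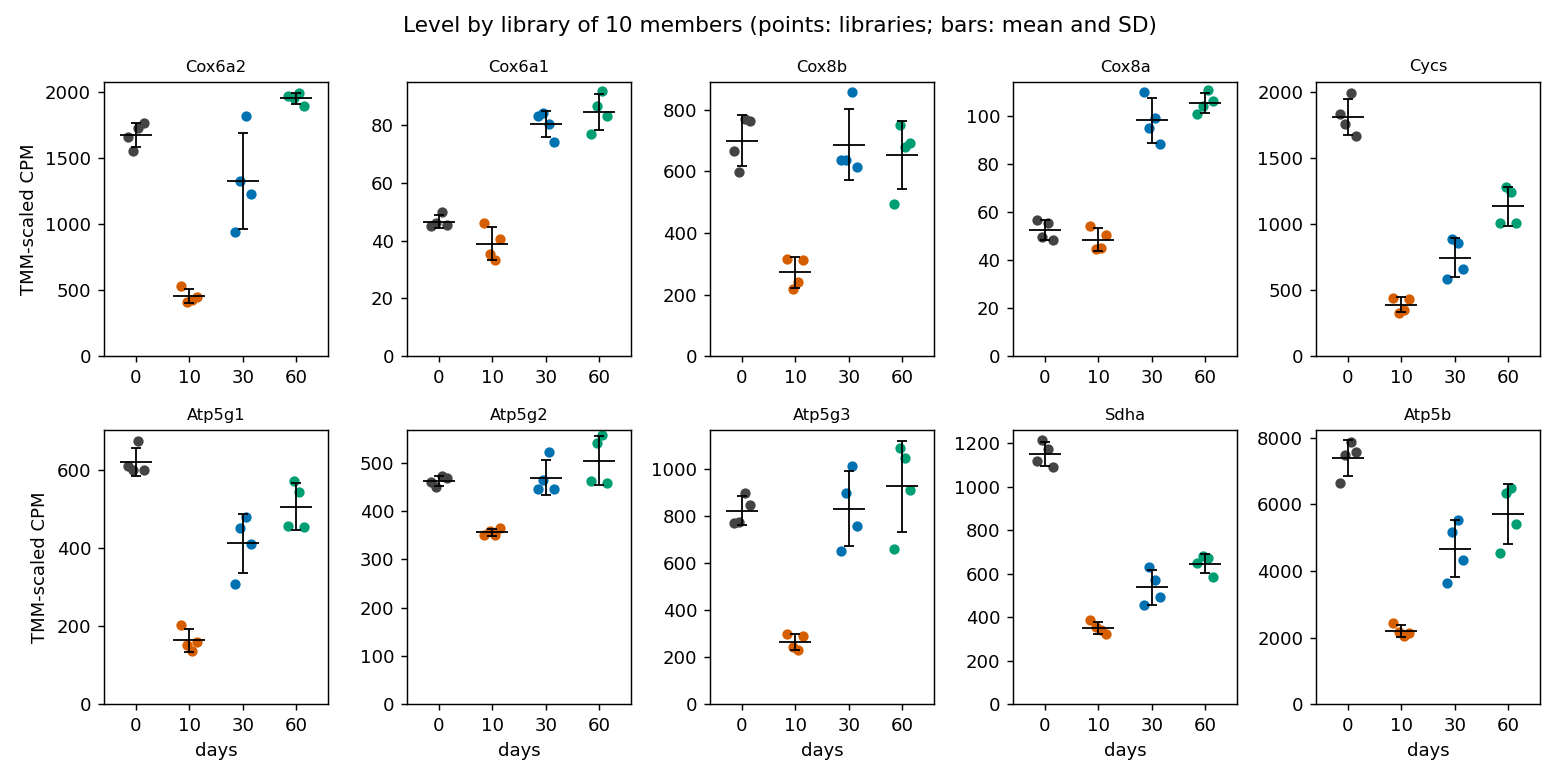
TMM-scaled CPM (y axis from 0) by day (x axis) for 10 members, with points for libraries and bars for the mean and SD. Cox6a2 and Cox8b are lowest at 10 days (27.2% and 38.9% of the control mean), and every library of Cox6a1 and Cox8a at 30 and 60 days lies above the controls.

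The ratio of an isoform pair within a library does not depend on the scaling between libraries, so it was compared as a log2 ratio of counts by two-sided exact permutation tests. The smallest p that 4 against 4 libraries allow is 0.0286. Across 5 pairs 20 tests were run and 14 had an adjusted p under 0.05, each of these at that smallest p (adjusted 0.0408).

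Muscle isoforms lost ground to their partners at every time. The log2 ratio of Cox6a2 to Cox6a1 was 5.20, 5.08, 5.11 and 5.29 at 0 days, 3.53, 3.53, 3.68 and 3.47 at 10 days, 3.50, 3.98, 4.50 and 4.05 at 30 days and 4.68, 4.50, 4.44 and 4.51 at 60 days. No injured library reached the lowest control. The differences from 0 days were -1.61 ± 0.06 (SE), -1.16 ± 0.21 and -0.64 ± 0.07, and 60 days exceeded 10 days by 0.98 ± 0.07 (exact permutation p = 0.0286 each).

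For Cox8b to Cox8a the ratio was 3.55, 3.59, 3.79 and 3.98 at 0 days, 2.55, 2.29, 2.43 and 2.62 at 10 days, 2.53, 2.75, 3.11 and 2.80 at 30 days and 2.29, 2.85, 2.62 and 2.70 at 60 days. Again every injured library lay under the controls. The differences from 0 days were -1.26 ± 0.12, -0.93 ± 0.15 and -1.12 ± 0.15 (exact permutation p = 0.0286 each). No difference was detectable between 60 and 10 days, at 0.14 ± 0.14 (exact permutation p = 0.343, adjusted 0.403). The contrast between the 2 pairs was not tested.

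**Figure D4:**
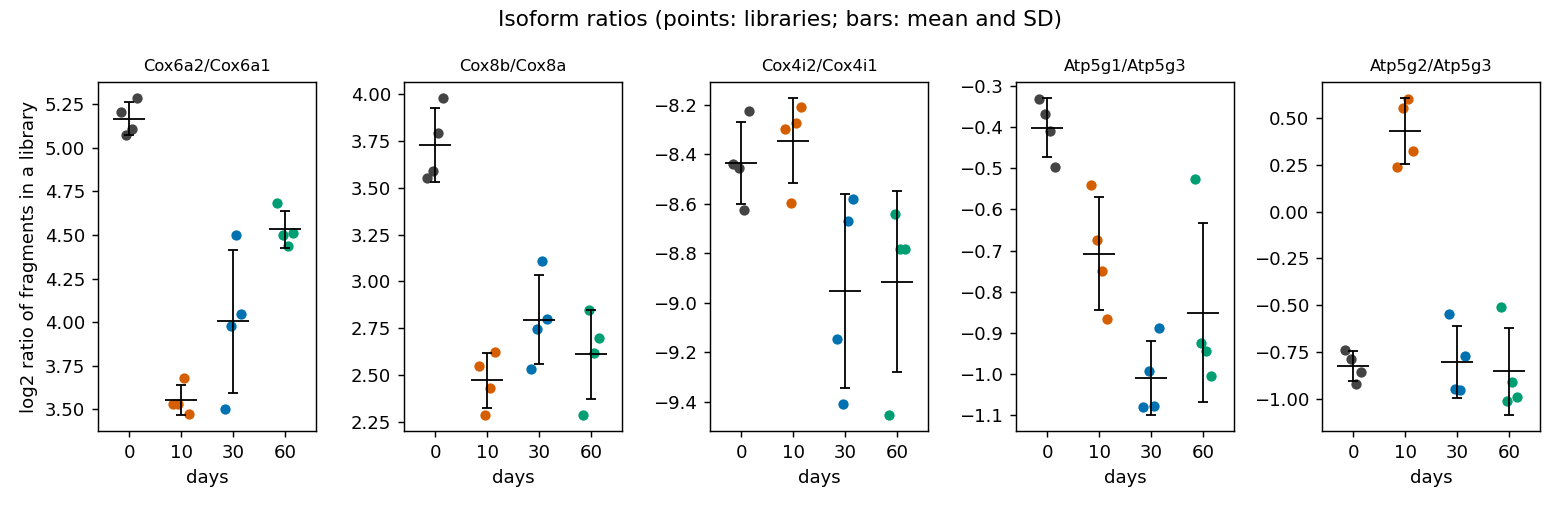
Log2 ratio of counts of each isoform pair (y axis) in each library (points) by day (x axis), with the mean and SD as bars. For Cox6a2/Cox6a1 and Cox8b/Cox8a all injured libraries lie below the controls, and Atp5g2/Atp5g3 is higher at 10 days alone.

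Cox4i2, the form of subunit 4 known from lung and low oxygen, was scarce, at 30 to 72 fragments a library. It stood at 2.81, 2.64, 2.81 and 3.45 CPM at 0 days, 1.39, 0.986, 1.19 and 1.41 CPM at 10 days, 1.28, 1.35, 2.72 and 2.25 CPM at 30 days and 1.43, 3.25, 2.86 and 2.62 CPM at 60 days. It fell with Cox4i1 at 10 days (-1.23 ± 0.27, edgeR adjusted p = 0.000775, or -0.57 and 0.0592 with library totals), and the ratio of Cox4i2 to Cox4i1 differed from 0 days by 0.09 ± 0.12 (exact permutation p = 0.457). At 60 days the ratio was lower by -0.48 ± 0.20 than at 0 days and by -0.57 ± 0.20 than at 10 days (exact permutation p = 0.0286, adjusted 0.0408). Thinning every library to the smallest total ended both calls (adjusted p = 0.0816 and 0.267), and made one at 30 days (-0.70, adjusted p = 0.044, in place of -0.52, 0.0762).

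ATP synthase is a rotary machine whose catalytic head carries alternating alpha (Atp5a1) and beta (Atp5b) subunits. Atp5b stood at 6637, 7479, 7873 and 7574 CPM at 0 days, 2447, 2179, 2051 and 2130 CPM at 10 days, 3642, 5174, 5519 and 4335 CPM at 30 days and 4551, 6347, 6478 and 5405 CPM at 60 days. Atp5a1 stood at 3927, 4223, 4501 and 4230 CPM at 0 days, 1368, 1175, 1189 and 1111 CPM at 10 days, 1777, 2491, 2567 and 2050 CPM at 30 days and 2488, 2922, 2945 and 2456 CPM at 60 days. All injured libraries lay under the controls for both. Atp5a1 changed by -1.80 ± 0.12 (edgeR adjusted p = 3.48e-09), -0.93 ± 0.12 (4.96e-06) and -0.64 ± 0.12 (0.000233), and with library totals it was still lower at 60 days (-0.23). Atp5b changed by -1.75 ± 0.14 (2.04e-08), -0.66 ± 0.14 (0.000513) and -0.38 ± 0.14 (0.0267) by edgeR. With library totals its 30-day value was -0.18, not called (0.198), and its 60-day value 0.04. The 60-day call was also lost without replicate 2, 3 or 4 at 0 days or replicate 1 or 4 at 60 days (highest adjusted p = 0.0882).

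The remaining head, stalk and membrane subunits all fell at 10 days, with log2 fold changes from -1.004 (Atp5h) to -1.82 (Atp5c1), leaving aside the c subunit genes. At 60 days only Atp5i, a small subunit of the membrane part, was called higher (0.48 ± 0.14, edgeR adjusted p = 0.00644), with libraries that overlapped the controls. Of 14 subunits tested, 11 were not called at that time.

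The 3 genes for the c subunit moved apart. Atp5g1 fell furthest of the complex, from 611, 601, 675 and 601 CPM at 0 days to 204, 153, 137 and 160 CPM at 10 days, and stood at 307, 452, 481 and 410 CPM at 30 days and 457, 573, 543 and 453 CPM at 60 days. Atp5g3 fell from 769, 775, 897 and 848 CPM to 297, 244, 231 and 291 CPM, and stood at 649, 899, 1014 and 759 CPM at 30 days and 659, 1089, 1045 and 911 CPM at 60 days. On the TMM scale Atp5g1 libraries lay under the controls without overlap at both later times, while those of Atp5g3 overlapped them. Atp5g1 had fold changes of -1.93 ± 0.14 (edgeR adjusted p = 7.21e-09), -0.59 ± 0.14 (0.00121) and -0.30 ± 0.14 (0.0725), but with library totals it was -0.11 at 30 days, not called (0.424), and 0.11 at 60 days. Atp5g3 had fold changes of -1.63 ± 0.16 (1.57e-07), 0.01 ± 0.15 (0.94) and 0.17 ± 0.15 (0.348) by edgeR, and with library totals it was called higher at both later times (0.50 and 0.58).

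Atp5g2 changed least of the complex at 10 days. It stood at 461, 449, 474 and 469 CPM at 0 days, 350, 358, 351 and 365 CPM at 10 days, 445, 465, 523 and 445 CPM at 30 days and 463, 541, 557 and 458 CPM at 60 days. The 10-day libraries lay under all others, a change of -0.38 ± 0.08 (edgeR adjusted p = 0.000467), which was 0.28 and called higher with library totals. Later values were not called (0.02 and 0.12), but were with library totals (0.51 and 0.53). Against Atp5g3 within libraries, Atp5g2 was higher at 10 than at 0 days by 1.26 ± 0.10 on the log2 scale (exact permutation p = 0.0286). At 30 and 60 days that ratio differed from 0 days by 0.02 ± 0.10 and -0.03 ± 0.12 (exact permutation p = 0.914 each). The ratio of Atp5g1 to Atp5g3 was lower than at 0 days at all 3 times, by -0.31 ± 0.08, -0.61 ± 0.06 and -0.45 ± 0.11 (exact permutation p = 0.0286 each).

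Genes that build complex IV moved in both directions. Cox17, a copper chaperone that feeds the copper centres, was the only member called higher at all 3 times on the TMM scale. With library totals it was called higher too (1.05, 0.80 and 0.85). So were others, Cox6a1 (0.40, 1.28 and 1.27) and Cox8a (0.54, 1.40 and 1.41) among them. Cox17 went from 75.1 ± 8.19 CPM (SD, n = 4) to 98.5 ± 7.67, 92.5 ± 6.46 and 101.9 ± 8.31 CPM. Its libraries did not overlap the controls, with changes of 0.39, 0.30 and 0.44 (edgeR adjusted p = 0.000905, 0.00651 and 0.000453). Cox19, a partner of Cox17 in the intermembrane space, went the other way, from 77.6 ± 3.86 CPM to 29.6 ± 1.91, 39.7 ± 4.17 and 48.5 ± 3.61 CPM. Cox19 was lower at all 3 times with either scaling (-1.39, -0.97 and -0.68).

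Cox11, which also delivers copper, showed no return. Its means were 15.2 ± 1.08, 10.3 ± 0.479, 9.15 ± 1.12 and 6.90 ± 2.26 CPM, with changes of -0.55, -0.72 and -1.13 (edgeR adjusted p = 0.00544, 0.00077 and 2.29e-05). With library totals the values were 0.10, -0.24 (not called) and -0.73, the last still called. At 60 days Cox11 stood at 10.2, 6.28, 5.03 and 6.09 CPM, and replicate 1 lay within the 10-day range (9.63 to 10.7 CPM). Cox16 was called lower throughout (-0.48, -0.68 and -0.59), but with library totals its values were 0.18, -0.18 and -0.18 and none was called. Cox15, which makes heme A, went from -0.27 at 10 days (0.39 with library totals) to 0.33 at 60 days. Cox7a2l, a supercomplex factor, changed by -0.29 at 10 days (0.37 with library totals), and Cox18 by -0.64 (0.02 with library totals).

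In all 10 members were lower at all 3 times: Sdha, Uqcrc2, Uqcrfs1, Cycs, Cox11, Cox16, Cox19, Atp5a1, Atp5b and Atp5sl. Of these, Sdha, Uqcrc2, Atp5a1, Cox11 and Cox19 were also called lower at 60 days with library totals. A further 14 were lower at 10 and 30 days and not called at 60 days, and 18 were lower at 10 days alone, Cox6a2, Cox8b, Cox4i1 and Atp5g3 among them. Of all genes, 29.4%, 30.9% and 29.1% were lower at 10, 30 and 60 days taken singly. The share of all genes with each of these joint patterns was not computed, so the counts are not set against a background.

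Complex I feeds electrons from NADH into the same chain. All 36 tested genes listed for it, taken by symbols beginning with Nduf but not Ndufaf, were lower at 10 days (median -1.21). They ran from Ndufs7 (-2.23) to Ndufs4 (-0.42). Ndufa4 (-0.95) is in this list by its symbol alone, and is also counted among the assembly factors and accessory proteins of complexes II to V below. At 30 days 21 were lower and 1 higher, and at 60 days 4 lower and 7 higher (medians -0.32 and 0.01). With library totals the medians of complex I were -0.55, 0.17 and 0.42, and Ndufs4 was higher at 10 days (0.23). Among 66 tested genes of the mitochondrial ribosome, which makes the mitochondrially encoded subunits, 51 were lower and 3 higher at 10 days (median -0.64), 25 and 7 at 30 days (-0.12) and 24 and 4 at 60 days (-0.12). Of all genes 29.4% were lower and 33.3% higher at 10 days, 30.9% and 33.7% at 30 days, and 29.1% and 29.9% at 60 days. With library totals the ribosomal medians turned to 0.02, 0.37 and 0.29. Its lowest and highest genes at 10 days were Mrpl12 (-1.53) and Mrpl17 (0.43).

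Among 31 listed assembly factors and accessory proteins of complexes II to V, 22 were in the table and 21 were tested. At 10 days 16 were lower and 1 higher (median -0.62), at 30 days 11 and 2 (-0.22) and at 60 days 10 and 1 (-0.29). With library totals these medians turned to 0.04, 0.28 and 0.12. The 1 that was higher at 10 days was Atpif1, the inhibitor that stops ATP synthase from running backwards. It went from 50.4 CPM to 128, 120 and 124 CPM, changes of 1.34 ± 0.10, 1.25 ± 0.10 and 1.30 ± 0.10 (edgeR adjusted p = 7.21e-09, 2.15e-08 and 3.06e-08). Atpaf1, which helps assemble the ATP synthase head, fell most at 10 days (-1.37 ± 0.08, adjusted p = 1.17e-09) and was still lower at 60 days (-0.86).

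Fewer muscle cells and less RNA per muscle cell cannot be told apart in whole-muscle RNA. The summed level of 7 myofibre marker genes (an eighth, Ttn, was not analysed here) was 195837 to 216250 CPM at 0 days, 45785 to 50931 at 10 days, 76333 to 117574 at 30 days and 110340 to 125756 at 60 days. They were abundant in every library, as a skeletal muscle would show, and no listed gene was at 0 in every library. For 7 slow myofibre genes the ranges were 8045 to 13188, 2245 to 4258, 5784 to 8459 and 5239 to 10320 CPM. For 8 macrophage genes they were 43.6 to 68.0, 122 to 170.2, 184 to 213 and 149 to 270.5 CPM, and for 6 fibroblast genes 455 to 974, 928 to 2856, 1450 to 2414 and 1285 to 2786 CPM. So the summed myofibre markers were lowest, and the summed macrophage markers above the controls, in the libraries where most members were lowest. Single myofibre genes differed. Of the 7, 1 was called lower at 30 than at 10 days (lowest Des, -0.34). At 60 against 10 days 2 were called lower (lowest Myh4, -0.60). The summed macrophage markers stayed above the controls at 30 and 60 days too. The part of these markers in the result was not tested.

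In the order 0, 10, 30 and 60 days, 6 adipocyte genes summed to 656 to 853, 392 to 526, 396 to 510.2 and 603 to 841 CPM. The sum hides changes of single genes. On the TMM scale 4 of the 6 were called higher at 60 than at 0 days and 0 lower (all genes: 29.9% and 29.1%). Their median log2 fold change was 1.61, from Lpl (-0.34) to Adipoq (2.05). At 10 days and at 30 days 2 were called lower and 0 higher. The brown adipocyte pair, markers of a cell type that also makes Cox8b, summed to 1.72 to 4.16, 9.86 to 14.9, 10.1 to 16.9 and 7.37 to 8.62 CPM. Only 1 of the 2, Cidea, passed the filter on low counts, so the pair is in effect a single gene. For 4 endothelial genes the sums were 197 to 239.8, 105 to 166, 154 to 178 and 171 to 264 CPM, and for 3 smooth muscle genes 157 to 222, 66.2 to 98.0, 112 to 136 and 107 to 273 CPM. Markers of Schwann cells (4 genes) summed to 41.9 to 69.3, 17.2 to 33.9, 40.4 to 69.4 and 81.5 to 184 CPM. Markers of cardiac muscle (4 genes, 2 of which passed the filter), which also makes Cox6a2 and Cox8b, summed to 4.46 to 127.5, 23.9 to 63.2, 3.98 to 92.5 and 39.6 to 157 CPM.

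Across the 16 libraries, the genes whose log2 level followed Cox6a2 most closely among 8475 genes of at least 5 CPM were Cox4i1 (Pearson's r = 0.989, Spearman's rho = 0.938), Ndufa11 (0.987 and 0.956) and Cox5b (0.983 and 0.882). For Cox8b they were Ndufv3 (0.978 and 0.965), Ndufa12 (0.973 and 0.894) and Atp5g3 (0.973 and 0.859). These correlations describe libraries of 4 groups that share the same change over time.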

How the data were processed

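RNA was extracted with the QIAGEN miRNeasy kit and libraries made with Illumina's TruSeq mRNA v2 kit, per the labels' protocols. The deposited values are estimated counts, raw fragments per gene that the authors did not scale, per the file headers. The submitters' processing notes name bcl2fastq 1.8.4, FastQC, TopHat2 2.0.9, Bowtie2 2.1.0.0, Cufflinks, Cuffdiff 2.1.1 and the rn5 build, with no role or settings. How reads of similar gene copies were shared, and whether strand was used, is not given in the sources used here.

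Counts were rounded to whole numbers, filtered with filterByExpr (11658 of 17147 genes kept), scaled by TMM (factors 0.75 to 1.24) and tested with edgeR 4.0.16 in R 4.3.3 (quasi-likelihood, robust, 4 groups in 1 model, no covariate). P-values were adjusted by Benjamini-Hochberg over all genes tested, and called under 0.05. The standard error is the log2 fold change over the square root of F. Isoform ratios used counts with 0.5 added and two-sided exact permutation tests, adjusted over 20 tests, and ratios need no scaling. The 2 planned pairs Cox7a1/Cox7a2 and Cox6b2/Cox6b1 were not run. Totals of 17.2 to 39.9 M fragments give a floor of 3 counts at 0.0752 to 0.175 CPM, counting error only.

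Alternatives were RLE, upper-quartile and library-total scaling, DESeq2 1.42.0, limma-voom (limma 3.58.1), no filter, a mean of at least 1 CPM, the 2 compared groups alone, a replicate block, the letter in the sample titles, leaving out each library, an adjusted p under 0.01, 2 added to each count and thinned counts. The scripts were tested on simulated data. Members were named by symbol, with core subunits, isoform pairs and the largest and smallest change at 10 days in each complex given in full, and from other lists the largest rise and fall. Lists were complex I (Nduf), mitochondrial ribosome (Mrpl, Mrps), assembly factors, and markers of myofibre, slow myofibre, macrophage, fibroblast, adipocyte, brown adipocyte, endothelial, smooth muscle, Schwann and cardiac cells. The members and lists were chosen with earlier results of these data known. Promoters came from RefSeq's GRCr8 table, to which all 54 members matched by symbol or synonym and 45 had a promoter.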

Additional observations from a re-analysis of the deposited data

Results flagged for a closer look

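In 104 checks of a group of 4 libraries for a value far from the other 3, 5 stood out, about the number that chance gives at 1 check in 20. Sdhb had a highest control library of 743.6 CPM, Sdhd of 810.8 CPM and Atp5g1 of 675 CPM. Cox8b had a highest library of 857 CPM at 30 days. The log2 ratio of Atp5g1 to Atp5g3 had a highest library of -0.53 at 60 days.

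Of the members, 4 were called lower than the controls at 10 days and higher at 60 days by edgeR, though with library totals Cox6a1 (0.40) and Cox15 (0.39) were higher at 10 days too. Their log2 differences between 60 and 10 days were 1.41 for Uqcrb, 1.12 for Cox6a1, 0.60 for Cox15 and 1.71 for Atp5i. The way these 4 were picked makes the differences positive, so they are a description and no further test.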

How the results depend on the processing

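Library totals as scaling moved the results most. Medians of the members became -0.67 (10 days against 0), 0.20 (30 days), 0.40 (60 days) and 1.05 (60 against 10 days), and 39 members were called at 60 days, 34 of them higher. Of 150 member values against 0 days, 54 changed sign, 9 of them called with neither scaling. Those 9 were Cox5b 0.19, Cox6a2 0.14 and Atp5e 0.197 at 30 days, and Uqcrc1 0.10, Cox4i2 0.20, Cox5a 0.21, Cox8b 0.31, Atp5c1 0.18 and Atp5g1 0.11 at 60 days. The other 45 were, at 10 days, Cox6a1 0.40, Cox8a 0.54, Cox7a2l 0.37, Cox11 0.10, Cox15 0.39, Cox16 0.18, Cox18 0.023, Cox20 0.48, Atp5g2 0.28 and Atp5s 0.56. At 30 days the others were Sdhb 0.12, Sdhc 0.12, Sdhd 0.033, Cyc1 0.15, Uqcr10 0.051, Uqcr11 0.26, Uqcrb 0.41, Uqcrh 0.26, Uqcrq 0.30, Cox4i1 0.33, Cox6c 0.25, Cox7a2 0.32, Cox7b 0.043, Cox7c 0.21, Cox8b 0.46, Atp5d 0.023, Atp5h 0.41, Atp5j 0.29, Atp5j2 0.195, Atp5l 0.36, Atp5o 0.27, Atp5s 0.48 and Atp5sl 0.17. At 60 days the others were Sdhb 0.30, Sdhc 0.26, Sdhd 0.27, Cyc1 0.31, Uqcr10 0.31, Uqcrfs1 0.029, Uqcrh 0.39, Uqcrq 0.41, Cox18 0.38, Atp5b 0.035, Atp5d 0.29 and Atp5s 0.22. These follow the shift of all genes by construction of that scaling. Upper-quartile factors gave 6 higher and 17 lower at 30 days, and 19 higher and 8 lower at 60 days. Members called between 60 and 30 days numbered 1 with those groups fitted alone, 3 at an adjusted p under 0.01, and 7 to 28 leaving out 1 library. Thinned counts gave Cox4i2/Cox4i1 ratios of -0.70 (30 days against 0), -0.56 (60 days against 0) and -0.42 (60 against 10 days). The cause was not tested. Libraries with the same number did not deviate together (24 pairs, correlations -0.24 to 0.22). With a replicate block on that number, 47 members were called at 10 days, 31 at 30 days and 18 at 60 days. For isoform ratios the block gives a value only, since sign flips over 4 pairs cannot go below p = 0.125 (exact permutation). Depth limits Cox4i2 and Cox6b2.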
